A study of Mus musculus with 12 samples.

Results

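The proteasome is the protease complex that degrades most proteins tagged with ubiquitin. Its core particle is a barrel of alpha rings, built from the Psma proteins, and beta rings, built from the Psmb proteins, and the catalytic sites lie inside the beta rings. A cap, built from the Psmc ATPases and the Psmd proteins, binds tagged substrates, removes the ubiquitin, unfolds the chain and feeds it into the core. In liver the subunits are made in all hepatocytes, and their transcription can be raised together by the factors Nfe2l1 and Nfe2l2 through antioxidant response elements.

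The genes described here were the constitutive members of this complex, taken as every mouse gene named Psma, Psmb, Psmc or Psmd and a number, without the inducible Psmb8, Psmb9 and Psmb10 and the thymus subunit Psmb11. They were 35 of the 20283 named genes on the array, 15 of the core and 20 of the cap. Where a gene had 2 probes, the brighter one was used. A name of this form does not always mean a subunit of the mature complex. Psmd5, Psmd9 and Psmd10 are chaperones that help the base of the cap assemble and then leave it, and Psma8 belongs to the testis form of the core.

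Gene expression was measured in the liver of male db/db mice, an obesity and diabetes model without a functional leptin receptor, whose label gave an age of 8 weeks. The mice received molecular hydrogen in one of 4 ways. MgH2, a powder that releases H2 in the stomach, was given by daily gavage for 1, 3 or 7 days against Mg(OH)2 as the control. The labels give its dose as 0.9 mg/kg, which the study also names for these days of MgH2 in db/db mice, although its methods section lists higher doses. H2-water with 0.8 mM of dissolved H2 was drunk for 14 days against degassed water. All treated and all control mice carried the db/db genotype. Per the methods, RNA of 9 mice of a group was combined into 3 pools of 3 mice, and each of the 12 arrays held 1 treated pool labelled with Cy5 and 1 control pool labelled with Cy3. The value reported throughout is the log2 ratio of treated over control within an array, in which 0 means equal signals.

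The dyes were never swapped. In a ratio of treated over control, an effect of the treatment and a dye bias of the probe cannot be told apart, whereas a constant dye bias cancels when the ratios of 2 groups are subtracted from each other. Every call below came from limma, fitted to all 12 arrays, with Benjamini-Hochberg adjustment over all probes well above background in both channels, and a gene was called at an adjusted p under 0.05. Between 51.8% and 56.5% of the probes were well above background on an array, and no spot was saturated. Of 6 hepatocyte markers, among them Alb and Ttr, all were well above background on every array. The acinar marker Amy2a5 and the duct markers Krt19 and Sox9 were so on all 12 arrays as well and the duct marker Krt7 on 8, whereas the acinar markers Cpa1 and Pnlip were on 2 and 1, and Cela1, Prss2 and the duct marker Epcam on none. The 3 arrays of 14 days lay on a slide of their own and were read with another software version, so the slide, the route of H2 and the time cannot be told apart there.

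All constitutive genes but one were expressed. The probes of 33 of the 35 genes were well above background on all 12 arrays. The ATPase Psmc5 was so on 11, because its spot was flagged on the first 14-day array and was left out of the fit there. Psma8 was above background on no array and was not tested. This left 34 genes for the MgH2 groups, 14 of the core and 20 of the cap, and 33 for H2-water.

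Changes in these genes were small in all 4 groups. The group means ran from -0.26 to 0.12 after 1 day, from -0.23 to 0.26 after 3 days, from -0.25 to 0.41 after 7 days and from -0.30 to 0.17 after 14 days. The highest of these, for Psmd9 after 7 days, was a ratio of 1.32 to control. The SE of a group mean was between 0.028 and 0.056.

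**Figure D1:**
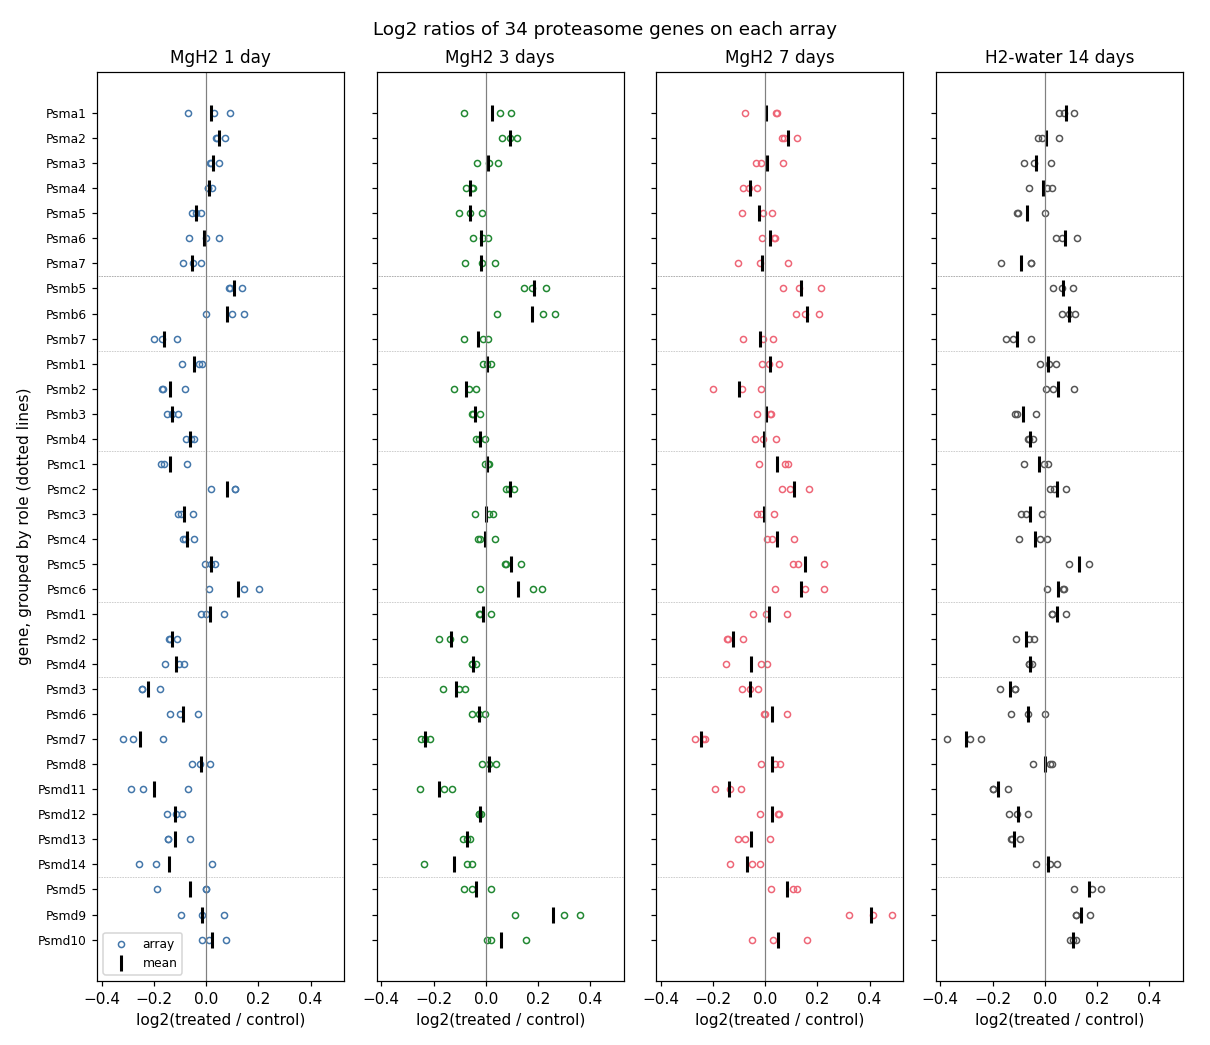
Log2 ratio of treated over control (x axis) for each of the 34 expressed genes (y axis, grouped by role from the alpha ring at the top to the assembly chaperones at the bottom) in the 4 groups. Open circles are single arrays, 3 per group, and black ticks are their means. Psmd7 lies left of 0 on all 12 arrays, and Psmd9 reaches the highest values, between 0.32 and 0.49 after 7 days.

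After 1 day of MgH2 the cap genes lay low. Of 34 genes, 8 were lower than the control and 0 were higher, which is 23.5% of the genes, whereas 9.39% of all tested probes were called, 4.24% lower and 5.15% higher. The 8 were 6 of the 20 cap genes and 2 of the 14 core genes. All 8 genes of the lid, the part of the cap that takes off ubiquitin, had means under 0, and 4 of them were called. A low lid was not particular to 1 day. Of its 8 means, 7 lay under 0 after 3 days, 5 after 7 days and 7 after 14 days of H2-water. In these groups 3, 2 and 3 lid genes were called lower. The lid median was -0.13, -0.095, -0.056 and -0.11 after 1, 3, 7 and 14 days. After 1 day the median over the cap genes was -0.087 and over the core genes -0.022, beside -0.0033 for all tested probes. On the 3 arrays the cap median was -0.12, -0.099 and -0.039, and the core median was -0.024, -0.061 and -0.0053. The 3-day array on the slide of the 1-day arrays had a cap median of -0.035. In pooled liver RNA, less RNA per cell and fewer cells of a type cannot be told apart. Of 28 tested marker genes of liver, blood, duct and acinar cells, 1 was called on this day, 3.57% beside 9.39% of all tested probes. The medians of the marker classes ran from -0.30 for blood to 0.17 for stellate cells. With each channel divided by its total, which moved the median of all probes to -0.038, 12 genes were lower and 0 higher. That scaling tilted the calls over all tested probes the same way. They went from 1013 higher and 833 lower to more lower than higher, with the counts given in the last section.

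After 3 days 3 of 34 genes were higher and 4 were lower, 20.6% of the genes against 23.4% of all tested probes, of which 12.3% were higher and 11.1% lower. After 7 days 5 were higher and 3 were lower, 23.5% against 29.5%, with 15.3% higher and 14.3% lower. After 14 days of H2-water 1 of 33 was higher and 3 were lower, 12.1% against 8.84%, with 4.92% higher and 3.91% lower. The shares at 3 and 7 days were thus no higher than those of all probes. Fitted on a group's own 3 arrays, with no spread shared between groups, 0 genes were called after 1 day, 0 after 3 days, 2 after 7 days and 0 after 14 days. Leaving out any one array of a group left 2 or 3, 2 to 4, 3 or 4 and 1 in that order. The shares of all probes in these refits are not given here. The cap median was -0.016, 0.027 and -0.037 in the 3 later groups, and the core median was -0.018, 0.0032 and -0.00089.

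**Figure D2:**
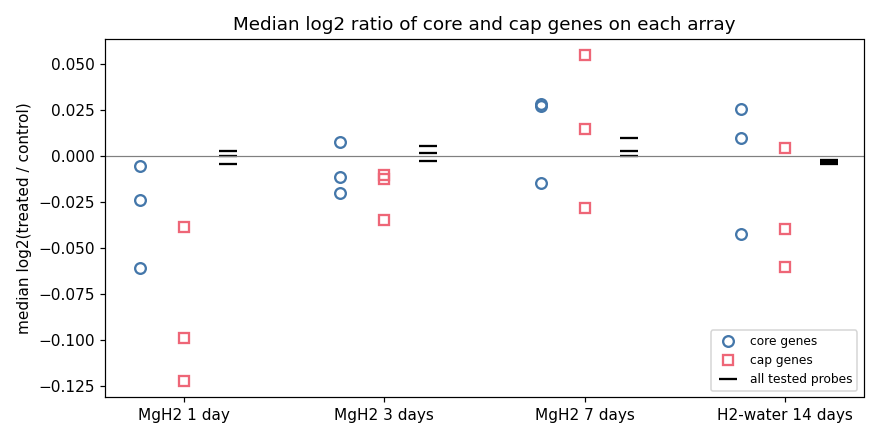
Median log2 ratio of treated over control (y axis) over the core genes (circles), the cap genes (squares) and all tested probes (dashes), with 1 symbol per array and 3 arrays per group (x axis). The cap median lies under 0 on all 3 arrays of 1 day, at -0.12, -0.099 and -0.039, and the medians of all probes stay near 0.

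The alpha ring gave no call in any group. Its 7 genes, Psma1 to Psma7, which form the outer rings and the gate of the core, had means between -0.054 and 0.049 after 1 day, between -0.059 and 0.092 after 3 days, between -0.059 and 0.086 after 7 days and between -0.092 and 0.081 after 14 days. The second probe of Psma4 was higher after 14 days, at 0.14 (SE 0.033, adjusted p = 0.0297), whereas its brighter probe was at -0.0079 (SE 0.029, adjusted p = 0.907), so the probes of Psma4 disagree there.

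The 3 constitutive catalytic subunits did not move alike. Psmb5 carries the chymotrypsin-like site, Psmb6 the caspase-like site and Psmb7 the trypsin-like site. The log2 ratios of Psmb5 were 0.088, 0.091 and 0.14 after 1 day of MgH2, 0.15, 0.18 and 0.23 after 3 days, 0.22, 0.068 and 0.13 after 7 days and 0.032, 0.11 and 0.065 after 14 days of H2-water. All 12 values were above 0, and Psmb5 was called higher after 3 days, at 0.18 (SE 0.036, adjusted p = 0.00657), and after 7 days, at 0.14 (SE 0.036, adjusted p = 0.0176).

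Psmb5 has a second probe, and it pointed the other way. Its values were -0.19, -0.23 and -0.16 after 1 day of MgH2, -0.12, -0.13 and -0.12 after 3 days, -0.082, -0.18 and -0.11 after 7 days and -0.21, -0.15 and -0.14 after 14 days of H2-water, under 0 on all 12 arrays. It was called lower in each group, at -0.19 (SE 0.032, adjusted p = 0.00766) after 1 day, -0.12 (SE 0.032, adjusted p = 0.023) after 3 days, -0.12 (SE 0.032, adjusted p = 0.0168) after 7 days and -0.17 (SE 0.032, adjusted p = 0.0135) after 14 days. With 2 probes called in opposite directions, no direction against control can be given for Psmb5. Between days the probes were closer, since the difference of 3 days minus 1 day was 0.079 (SE 0.051, adjusted p = 0.504) for the brighter and 0.069 (SE 0.045, adjusted p = 0.511) for the other.

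The values of Psmb6 were -0.00066, 0.14 and 0.097 after 1 day of MgH2, 0.045, 0.22 and 0.27 after 3 days, 0.12, 0.15 and 0.21 after 7 days and 0.066, 0.12 and 0.094 after 14 days of H2-water. All but the first array lay above 0, and the gene was called higher after 3 days, at 0.18 (SE 0.046, adjusted p = 0.0211), and after 7 days, at 0.16 (SE 0.046, adjusted p = 0.0266). For Psmb7 the values were -0.17, -0.11 and -0.20 after 1 day of MgH2, -0.012, 0.0073 and -0.082 after 3 days, 0.029, -0.0076 and -0.084 after 7 days and -0.15, -0.12 and -0.053 after 14 days of H2-water. Psmb7 was lower after 1 day, at -0.16 (SE 0.037, adjusted p = 0.0247), and its mean was at -0.029 after 3 days and -0.021 after 7 days, neither of which passed the test.

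The other 4 beta subunits do not cleave and complete the inner rings. All 4 had means under 0 after 1 day. One of them, Psmb3, was called, with -0.15, -0.13 and -0.11 after 1 day of MgH2, -0.049, -0.054 and -0.021 after 3 days, 0.021, -0.030 and 0.020 after 7 days and -0.11, -0.11 and -0.032 after 14 days of H2-water. Its 3 arrays of 1 day lay below those of 3 and 7 days, and its ratio was lower than control after 1 day alone, at -0.13 (SE 0.03, adjusted p = 0.0268). Psmb1, Psmb2 and Psmb4 were called in no comparison, and their array values lay between -0.20 and 0.11.

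Psmd9 changed most over time. It encodes a chaperone that holds ATPases of the base during assembly of the cap. Its log2 ratios were -0.097, -0.017 and 0.069 after 1 day of MgH2, 0.11, 0.30 and 0.36 after 3 days, 0.41, 0.32 and 0.49 after 7 days and 0.12, 0.12 and 0.17 after 14 days of H2-water. The arrays of 7 days lay above all those of 1 day without overlap. Psmd9 was higher than control after 3 days, at 0.26 (SE 0.052, adjusted p = 0.0077), and after 7 days, at 0.41 (SE 0.052, adjusted p = 0.000593), and after 1 day it was at -0.015 (SE 0.053, adjusted p = 0.893). The rise from 1 to 7 days was 0.42 (SE 0.074, adjusted p = 0.0161), and Psmd9 was the 1 constitutive gene of 34, 2.94%, called between these days, where 6.98% of all tested probes were, 3.28% higher and 3.7% lower.

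The second probe of Psmd9 also had its highest values after 7 days, but after 14 days of H2-water its mean was -0.087, where the brighter probe had 0.14. Its values were -0.25, -0.026 and -0.10 after 1 day of MgH2, 0.19, 0.25 and 0.13 after 3 days, 0.27, 0.18 and 0.44 after 7 days and -0.14, -0.13 and 0.0063 after 14 days of H2-water. It was called higher after 3 days, at 0.19 (SE 0.059, adjusted p = 0.0414), after 7 days, at 0.30 (SE 0.059, adjusted p = 0.00462), and in the difference of 7 days minus 1 day, at 0.43 (SE 0.083, adjusted p = 0.0196), which was not called with replicate numbers as a block (adjusted p = 0.0649). From 7 days of MgH2 to 14 days of H2-water the ratio of this probe fell, with a difference of -0.39 (SE 0.082, adjusted p = 0.0289), while the brighter probe was at -0.27 (SE 0.074, adjusted p = 0.0581) and missed the threshold. The call of the second probe in this difference was kept under 6 of 14 alternative settings, with adjusted p from 0.016 to 0.0963.

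The rise of Psmd9 was called under 12 of 16 alternative settings, with adjusted p from 0.0063 to 0.76. It was no longer called with the slide as a fixed block, at 0.16 (adjusted p = 0.76), without the third array of 7 days, at 0.38 (adjusted p = 0.0589), with no filter on dim probes (adjusted p = 0.0688) or in a fit of the arrays of these 2 groups alone (adjusted p = 0.0601). No array of 1 day shared a slide with one of 7 days. Within the first slide the 3-day array stood 0.13 above the mean of the 1-day arrays, and within the second the 7-day arrays stood 0.036 above the 3-day arrays. With replicate numbers as a block the rise was 0.42 (adjusted p = 0.0409).

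**Figure D3:**
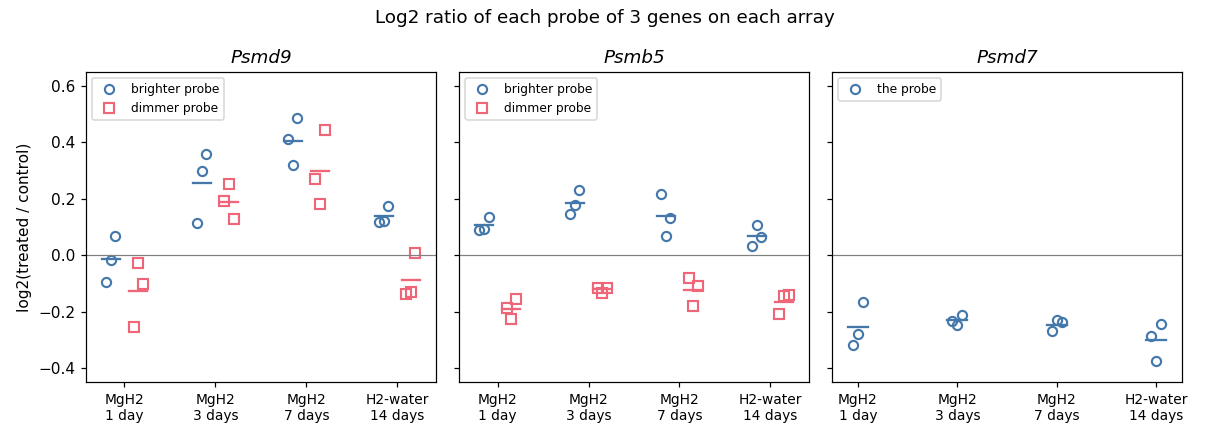
Log2 ratio of treated over control (y axis) on each array of the 4 groups (x axis) for Psmd9, Psmb5 and Psmd7. Circles are the brighter or single probe, squares the second probe, and short lines the means of 3 arrays. The probes of Psmd9 rise together from 1 to 7 days, those of Psmb5 lie on opposite sides of 0 on all 12 arrays, and Psmd7 stays between -0.37 and -0.17.

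The other chaperones of the base, Psmd5 and Psmd10, were called in no MgH2 group and in no difference between groups. Psmd5 had -0.19, -0.0024 and -0.0024 after 1 day of MgH2, -0.084, 0.021 and -0.051 after 3 days, 0.024, 0.11 and 0.12 after 7 days and 0.11, 0.18 and 0.22 after 14 days of H2-water. All 3 arrays of H2-water lay above 0, and the gene was called higher there, at 0.17 (SE 0.045, adjusted p = 0.044). Its arrays of 7 days lay above those of 1 day without overlap, but the difference, 0.15 (SE 0.063, adjusted p = 0.175), did not pass, and whether it differed from that of Psmd9 was not tested. Psmd10, which is also called gankyrin, was called in no comparison, and the 12 values of its brighter probe lay between -0.051 and 0.16. Its second probe was called in no group. The means of that probe were 0.23 (SE 0.071, adjusted p = 0.0751), 0.090, 0.038 and 0.19 (SE 0.072, adjusted p = 0.137) after 1, 3, 7 and 14 days.

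Psmd7 was the gene furthest below control in every group. It is a structural partner of the deubiquitinase Psmd14 in the lid. Its values were -0.32, -0.28 and -0.17 after 1 day of MgH2, -0.23, -0.25 and -0.21 after 3 days, -0.27, -0.23 and -0.24 after 7 days and -0.29, -0.37 and -0.25 after 14 days of H2-water. All 12 lay under 0, and Psmd7 was called lower in all 4 groups, at -0.26 (SE 0.038, adjusted p = 0.00411), -0.23 (SE 0.038, adjusted p = 0.00283), -0.25 (SE 0.038, adjusted p = 0.00137) and -0.30 (SE 0.038, adjusted p = 0.00144). No difference between groups was called, and 7 days minus 1 day was 0.0091 (SE 0.053, adjusted p = 0.937). The part of a dye bias of this single probe in the ratios was not tested.

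Psmd11, a lid scaffold, also lay under 0 on all 12 arrays, with -0.29, -0.24 and -0.069 after 1 day of MgH2, -0.25, -0.13 and -0.16 after 3 days, -0.14, -0.19 and -0.091 after 7 days and -0.20, -0.20 and -0.14 after 14 days of H2-water. It was called lower in all 4 groups, at -0.20 (SE 0.045, adjusted p = 0.0247), -0.18 (SE 0.045, adjusted p = 0.0188), -0.14 (SE 0.045, adjusted p = 0.0411) and -0.18 (SE 0.045, adjusted p = 0.0401). The third array of 1 day, at -0.069, stood above the other two of its group.

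Psmd3, another scaffold of the lid, had -0.24, -0.25 and -0.18 after 1 day of MgH2, -0.16, -0.080 and -0.10 after 3 days, -0.057, -0.088 and -0.030 after 7 days and -0.17, -0.11 and -0.12 after 14 days of H2-water. It was lower after 1 day, at -0.22 (SE 0.032, adjusted p = 0.00343), after 3 days, at -0.12 (SE 0.032, adjusted p = 0.0278), and after 14 days of H2-water, at -0.13 (SE 0.032, adjusted p = 0.0317), and its mean of 7 days, -0.058, did not pass. The difference of 7 days minus 1 day was 0.17 (SE 0.045, adjusted p = 0.0563), short of the threshold although its arrays of 1 and 7 days did not overlap. Among all tested probes 6.98% were called in that comparison.

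Psmd12, a lid subunit as well, had -0.15, -0.11 and -0.092 after 1 day of MgH2, -0.026, -0.025 and -0.019 after 3 days, 0.050, -0.020 and 0.051 after 7 days and -0.11, -0.14 and -0.066 after 14 days of H2-water. It was lower after 1 day at -0.12 (SE 0.031, adjusted p = 0.0389), and its second probe was too, at -0.13 (SE 0.033, adjusted p = 0.0349). Of the remaining lid genes, Psmd6, Psmd8, Psmd13 and Psmd14 were called in no comparison. The deubiquitinase Psmd14 was spread widest of these, with 1-day values of -0.26, -0.19 and 0.022.

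In the base of the cap, Psmd2 is a docking scaffold for ubiquitin receptors. Its values were -0.14, -0.14 and -0.11 after 1 day of MgH2, -0.14, -0.084 and -0.18 after 3 days, -0.14, -0.15 and -0.085 after 7 days and -0.060, -0.11 and -0.042 after 14 days of H2-water. It lay under 0 on all 12 arrays and was lower after 1, 3 and 7 days of MgH2, at -0.13 (SE 0.032, adjusted p = 0.0314), -0.13 (SE 0.032, adjusted p = 0.0149) and -0.13 (SE 0.032, adjusted p = 0.0149), and H2-water gave -0.070 (SE 0.031, adjusted p = 0.203). The scaffold Psmd1 and the ubiquitin receptor Psmd4 were called in no comparison.

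Of the 6 ATPases, which unfold the substrate, 2 were higher than control at 7 days and 0 lower, beside 15.3% and 14.3% of all tested probes. Psmc5 had -0.0031, 0.019 and 0.035 after 1 day of MgH2, 0.075, 0.13 and 0.079 after 3 days, 0.11, 0.13 and 0.22 after 7 days and 0.094 and 0.17 after 14 days of H2-water, where the last group holds 2 arrays. All values from 3 days on lay above 0, and Psmc5 was called higher after 7 days, at 0.15 (SE 0.035, adjusted p = 0.0122). Psmc2 had 0.11, 0.016 and 0.11 after 1 day of MgH2, 0.11, 0.087 and 0.077 after 3 days, 0.096, 0.063 and 0.17 after 7 days and 0.022, 0.035 and 0.083 after 14 days of H2-water, above 0 on all 12 arrays. It was called higher after 7 days, at 0.11 (SE 0.034, adjusted p = 0.0357), where its second probe gave 0.098 (SE 0.034, adjusted p = 0.0516) and just missed the threshold. The call of Psmc2 was kept under 4 of 12 alternative settings and lost under 8, with adjusted p from 0.0294 to 0.71.

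Psmc6 was among the highest means after 1 day but varied between arrays, with 0.011, 0.15 and 0.20 after 1 day of MgH2, -0.022, 0.21 and 0.18 after 3 days, 0.038, 0.15 and 0.23 after 7 days and 0.069, 0.0077 and 0.076 after 14 days of H2-water, and it passed in no comparison. Psmc1 was lower after 1 day, at -0.14 (SE 0.036, adjusted p = 0.0414), and its second probe was at -0.14 (SE 0.035, adjusted p = 0.0366). Psmc4 was called nowhere. Psmc3 was not called with its brighter probe, at -0.085 (SE 0.032, adjusted p = 0.126) after 1 day, whereas the other was lower after 1 day, at -0.18 (SE 0.035, adjusted p = 0.0141), and after 3 days, at -0.12 (SE 0.035, adjusted p = 0.0337).

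The comparisons between groups, in which a constant dye bias cancels, gave almost no calls in these genes. From 1 to 3 days 0 of 34 were called, 4 were at an unadjusted p under 0.05, and 0.0208% of all probes were called, 0.0156% higher and 0.00521% lower. From 3 to 7 days 0 genes were called, 0 were at an unadjusted p under 0.05, and 0% of all probes were called. H2-water at 14 days against MgH2 at 1 day gave 0 of 33, with 3 at an unadjusted p under 0.05 and 0.0748% of all probes called, 0.032% higher and 0.0427% lower. Against MgH2 at 7 days it gave 0 of 33 as well, with 3 at an unadjusted p under 0.05, although 6.61% of all probes were called, 3.45% higher and 3.15% lower. Fits with the replicate number as a block, where run, gave 0 as well, and with the slide as a random block the 4 comparisons gave 0, 0, 0 and 1. The SE of a member's difference lay between 0.040 and 0.079.

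From 1 to 7 days 30 of 34 genes had a positive difference, among them 19 of the 20 cap genes, and 10 genes were at an unadjusted p under 0.05, all of them positive. Of all tested probes 6.98% were called, 3.28% higher and 3.7% lower. The shares of all probes with a positive difference or an unadjusted p under 0.05 are not given here. Members vary together and the arrays of these days shared no slide, so these counts are a description. The median difference was 0.069 for the cap and 0.037 for the core, beside 0.0083 for all tested probes. After Psmd9 the largest were Psmc1, at 0.18 (SE 0.051, adjusted p = 0.0577), Psmd3, at 0.17, Psmd5, at 0.15, and Psmd12, at 0.15 (SE 0.043, adjusted p = 0.0687), which did not pass the test. Within slides the shift was smaller. The single 3-day array of the first slide stood above the mean of its 1-day arrays by a median of 0.031 over the cap genes and 0.025 over the core genes, and the 7-day arrays of the second slide differed from the 3-day arrays by -0.0091 and -0.011.

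**Figure D4:**
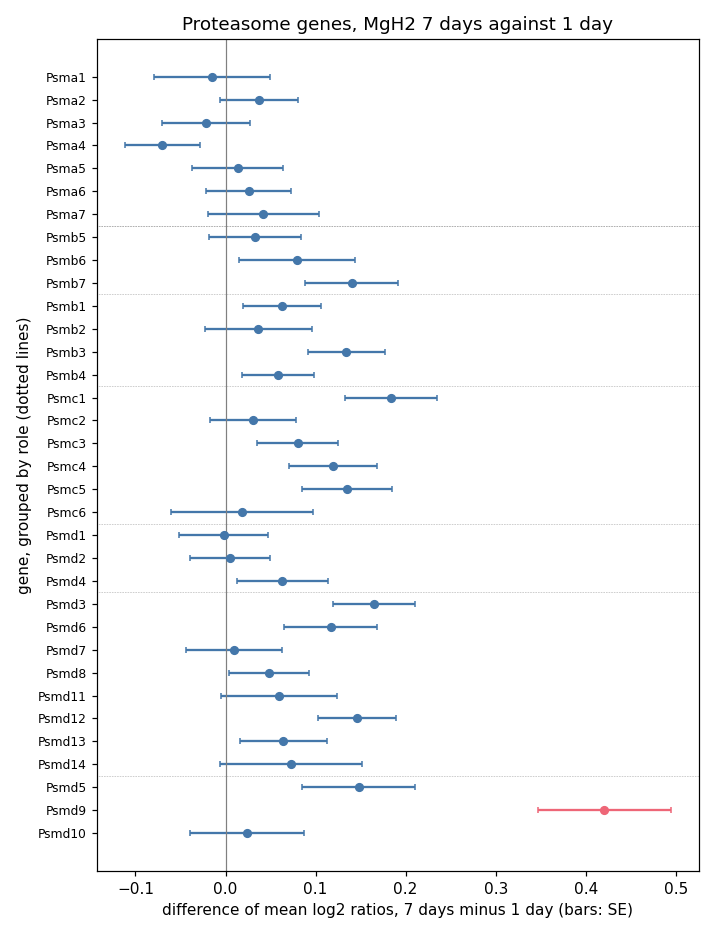
Difference of the mean log2 ratios, 7 days minus 1 day of MgH2 (x axis), for 34 proteasome genes (y axis, grouped by role), with 3 arrays per group. Bars are the SE of the limma fit, and the gene in red, Psmd9 at 0.42, is the one with an adjusted p under 0.05.

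Member genes tended to vary together from array to array. Over the 12 arrays, Pearson's r of a gene with the mean of the other members was at least 0.5 for 17 of the 33 genes measured on every array, 51.5%, and for 16.9% of 18364 other probes correlated with the mean of the members. The median r was 0.53 against 0.051. Most like the rest were the ATPase Psmc3, at 0.91, and the lid subunit Psmd6, at 0.90, followed by Psmd8, Psmd3 and Psmd9, each at 0.87. Psma4 was least like the others, at -0.39. The 12 arrays share 4 groups, their slides and the dye order, so these values are a description.

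Promoter sequences, from the RefSeq table of build GRCm38.p6, were found for 28 of the 35 genes, and no entry was given for Psma8, Psmb1, Psmb2, Psmb7, Psmc3, Psmd3 and Psmd7. The antioxidant response element core, spelled TGACNNNGC or on the other strand GCNNNGTCA, stood in the 300 bases from 250 before to 50 after the start in 5 of 28 genes, 17.9%, and in 14.0% of 27025 genes with a promoter in the table. The 5 were Psmb5, Psmb6, Psmd9, Psmc6 and Psmd12. The CCAAT box, spelled CCAAT or ATTGG, stood in 11 of 28, 39.3%, against 41.1% of all genes. Neither motif contains the other. The 3 genes called higher after 3 days, Psmd9, Psmb6 and, with its brighter probe only, Psmb5, all have the first motif, and they are shown because of that, 5′ to 3′ on the gene's strand, as the 100 bases before the start with the match in capitals. The windows are chr14:54617996-54618095, minus strand, for Psmb5, chr11:70525257-70525356, plus strand, for Psmb6, and chr5:123228090-123228189, plus strand, for Psmd9.
Psmb5: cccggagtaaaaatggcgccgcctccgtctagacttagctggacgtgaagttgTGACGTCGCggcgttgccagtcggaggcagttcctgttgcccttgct
Psmb6: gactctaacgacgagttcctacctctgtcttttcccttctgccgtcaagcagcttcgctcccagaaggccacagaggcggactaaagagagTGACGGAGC
Psmd9: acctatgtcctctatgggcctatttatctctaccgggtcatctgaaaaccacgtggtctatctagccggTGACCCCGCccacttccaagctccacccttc

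The match ends 39 bases before the start in Psmb5, 1 base before it in Psmb6 and 23 bases before it in Psmd9. In Psmc6, called in no group, and Psmd12, called lower after 1 day, it lies further out, at 219 to 227 and 239 to 247 bases before the start. For comparison, the same stretch is given for 2 genes that were called lower after 3 days and hold no match, Psmd2, chr16:20651552-20651651, and Psmd11, chr11:80428515-80428614, both on the plus strand. Psmc2 and Psmc5, called higher after 7 days, hold no match either. Psmd3 and Psmd7, which were also called lower after 3 days, have no promoter entry. A match says only that these letters are present, and no binding was measured. The genes shown were picked both by their calls and by whether they hold a match, and whether the motif goes with a call was not tested.
Psmd2: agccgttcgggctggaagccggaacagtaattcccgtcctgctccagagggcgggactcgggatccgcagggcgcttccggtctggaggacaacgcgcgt
Psmd11: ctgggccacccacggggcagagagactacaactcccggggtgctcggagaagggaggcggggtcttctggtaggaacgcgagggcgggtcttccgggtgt

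Other genes of the ubiquitin and proteasome pathway were read from a list of 41 genes found on the array. After 1 day 2 of 40 tested were higher and 4 lower, after 3 days 4 and 6, after 7 days 7 and 9, and after 14 days of H2-water 2 and 2 of 39. After 1 day this is 15% of the tested genes, beside 9.39% of all tested probes, after 3 days 25%, beside 23.4%, after 7 days 40.0%, beside 29.5%, and after 14 days 10.3%, beside 8.84%. The median of the list was -0.013, -0.015, -0.039 and -0.018. Nfe2l1, the factor that induces the constitutive subunits when the proteasome is inhibited, was not called in any comparison and was at 0.11 (SE 0.076, adjusted p = 0.33) after 3 days. Nfe2l2 was called in no comparison either. Of the 7 genes listed for transcription of the subunits, 1 was called higher after 7 days, beside 15.3% of all tested probes. It was Ddi2, at 0.26, 0.30 and 0.37 (adjusted p = 0.0256), and its second probe had a mean of 0.31 there.

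The inducible catalytic subunits, which replace the constitutive ones in the immunoproteasome, were lower after 3 and 7 days of MgH2. Psmb8 had -0.13, -0.085 and -0.22 after 1 day of MgH2, -0.27, -0.40 and -0.27 after 3 days, -0.36, -0.24 and -0.57 after 7 days and -0.27, -0.13 and -0.085 after 14 days of H2-water. All 12 values lay under 0, and it was lower after 3 days, at -0.32 (SE 0.062, adjusted p = 0.00675), and after 7 days, at -0.39 (SE 0.062, adjusted p = 0.00162).

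Psmb9 had 0.034, -0.065 and -0.24 after 1 day of MgH2, -0.31, -0.52 and -0.35 after 3 days, -0.44, -0.30 and -0.76 after 7 days and -0.24, 0.16 and 0.19 after 14 days of H2-water. It was lower after 3 days, at -0.39 (SE 0.1, adjusted p = 0.0204), and after 7 days, at -0.50 (SE 0.1, adjusted p = 0.00537). The arrays of both days lay under all those of 1 day, which reached down to -0.24. Psmb10 was lower after 3 days, at -0.28 (SE 0.054, adjusted p = 0.00592), and after 7 days, at -0.26 (SE 0.054, adjusted p = 0.00633). None of the 3 was called in a difference between groups, and for Psmb9 14 days minus 7 days was 0.53 (SE 0.14, adjusted p = 0.0522).

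The activator genes Psme1 and Psme2, whose products open the core and go with the immunoproteasome, were lower after 7 days, at -0.16 (SE 0.043, adjusted p = 0.0195) and -0.14 (SE 0.042, adjusted p = 0.0275). Psme1 had -0.10, -0.080 and -0.16 after 1 day of MgH2, -0.068, -0.13 and -0.20 after 3 days, -0.11, -0.094 and -0.28 after 7 days and 0.012, 0.087 and 0.11 after 14 days of H2-water. Every MgH2 array lay under 0 and every H2-water array above, and the difference of 14 days minus 7 days was 0.23 (SE 0.061, adjusted p = 0.0513), which just missed the threshold.

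Most tested leukocyte markers also lay low on these days, but not all of them. Of 8 such markers 7 were tested. After 3 days 3 were lower and 1, Cd3e, was higher, and after 7 days 4 were lower and 0 higher. That is 57.1% on both days, beside 23.4% and 29.5% of all tested probes. Cd3e had 0.089, 0.090 and 0.16 after 3 days. The dim Ptprc, with a mean signal of 25, was already at -0.58, -0.31 and -0.87 after 1 day. The median of the 7 markers was -0.36 after 3 days and -0.45 after 7 days, with array medians from -0.40 to -0.31 and from -0.51 to -0.41. After 1 day the array medians ran from -0.24 to 0.059 and after 14 days from -0.13 to 0.25. Over all 27 tested markers of liver, blood, duct and acinar cells, 3 were higher and 8 lower after 3 days, 2 and 10 after 7 days, and 0 and 3 after 14 days. These are 40.7%, 44.4% and 11.1% of the markers, beside 23.4%, 29.5% and 8.84% of all tested probes. The B cell marker Cd79a was well above background on 3 of 12 arrays. All 3 tested stellate cell markers were lower after 3 and 7 days as well, with medians of -0.47 and -0.42, beside 11.1% and 14.3% of all tested probes called lower. The part of these cells in the values of Psmb8, Psmb9, Psmb10, Psme1 and Psme2 was not tested.

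**Figure D5:**
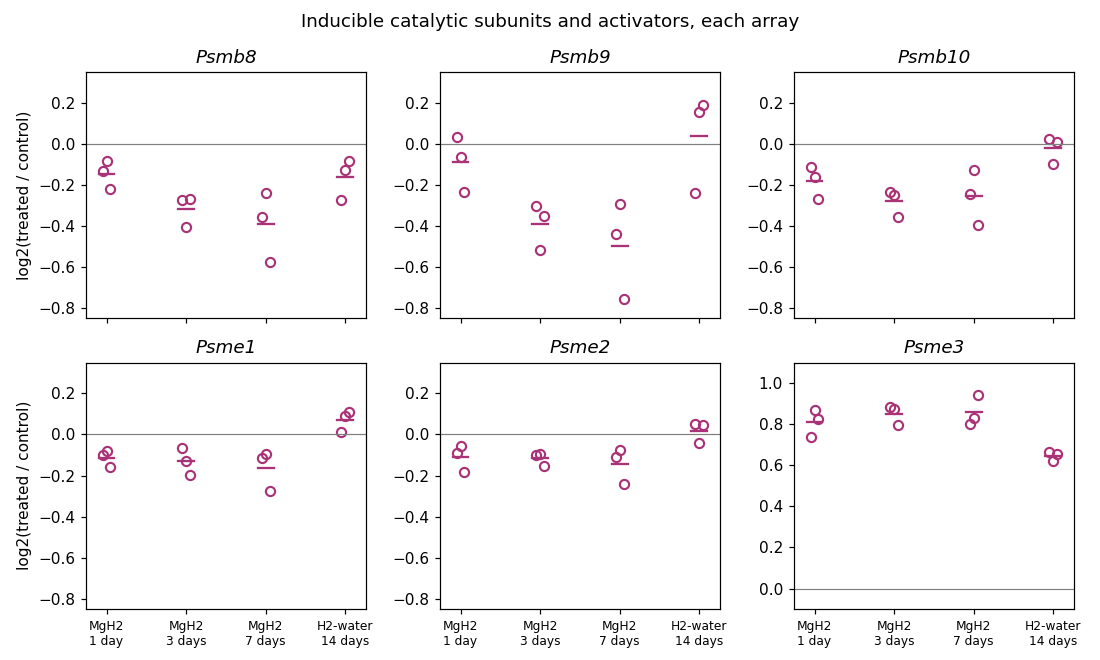
Log2 ratio of treated over control (y axis) on each array of the 4 groups (x axis) for the inducible catalytic subunits Psmb8, Psmb9 and Psmb10 and the activators Psme1, Psme2 and Psme3. Circles are arrays and short lines means of 3 arrays, and the axis of Psme3 has another range. The inducible subunits lie under 0 on all arrays of 3 and 7 days, and Psme3 lies between 0.62 and 0.94 on all 12.

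Psme3, the nuclear activator of the core, was the furthest from control of the genes tested in that list. Its values were 0.74, 0.87 and 0.83 after 1 day of MgH2, 0.88, 0.87 and 0.79 after 3 days, 0.80, 0.83 and 0.94 after 7 days and 0.66, 0.62 and 0.65 after 14 days of H2-water. It was called higher in all 4 groups, at 0.81 (SE 0.039, adjusted p = 3.44e-06), 0.85 (SE 0.039, adjusted p = 1.32e-06), 0.86 (SE 0.039, adjusted p = 1.43e-06) and 0.65 (SE 0.039, adjusted p = 3.15e-05). As for Psmd7, the part of a dye bias was not tested. In the difference of 14 days minus 7 days, Psme3 was lower in H2-water, at -0.21 (SE 0.054, adjusted p = 0.0462), a call kept under 5 of 15 alternative settings, with adjusted p from 0.0303 to 0.157. Psme4, the activator that acts on acetylated histones, was lower after 3, 7 and 14 days, at -0.18 (SE 0.043, adjusted p = 0.0151), -0.24 (SE 0.043, adjusted p = 0.00302) and -0.31 (SE 0.043, adjusted p = 0.00265), and its second probe had means of -0.082, -0.12 and -0.11 there.

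Partners of the cap and of substrate delivery were called in both directions. Uchl5, a deubiquitinase of the cap, was higher after 3, 7 and 14 days, at 0.24 (SE 0.031, adjusted p = 0.000907), 0.25 (SE 0.031, adjusted p = 0.000519) and 0.17 (SE 0.031, adjusted p = 0.0111), and its rise from 1 to 7 days was 0.19 (SE 0.044, adjusted p = 0.0348). Its receptor in the cap, Adrm1, was lower after 1 day, at -0.14 (SE 0.036, adjusted p = 0.0421), and rose from 1 to 7 days by 0.24 (SE 0.051, adjusted p = 0.0244). These were the 2 of 40 genes of the list called between those days, when 6.98% of all probes were. Neither was called with replicate numbers as a block, at adjusted p = 0.096 for Uchl5 and 0.0657 for Adrm1. Their calls were kept under 6 and 8 of 16 alternative settings, with adjusted p up to 0.688 and 0.683. Both of these highest values came with the slide as a fixed block, and the arrays of 1 and 7 days shared no slide.

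Nploc4, which recruits ubiquitinated proteins to the unfoldase Vcp, was higher after 1, 3 and 7 days, at 0.14 (SE 0.036, adjusted p = 0.0415), 0.26 (SE 0.036, adjusted p = 0.00128) and 0.31 (SE 0.036, adjusted p = 0.000323), and was lower in H2-water than in MgH2 at 7 days, with a difference of -0.22 (SE 0.051, adjusted p = 0.0338). That call was kept under 7 of 15 alternative settings, with adjusted p from 0.018 to 0.139. The core assembly chaperone Pomp was higher after 3 days, at 0.14 (SE 0.03, adjusted p = 0.00843), but its second probe had a mean of -0.076, so its direction differs between probes. The cap-bound thioredoxin-like protein Txnl1 was lower after 3 days, at -0.25 (SE 0.047, adjusted p = 0.00594), and 7 days, at -0.17 (SE 0.047, adjusted p = 0.0242), and the small cap subunit Sem1 was lower after 7 days, at -0.12 (SE 0.029, adjusted p = 0.0144), and 14 days, at -0.12 (SE 0.029, adjusted p = 0.0282).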

How the data were processed

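Liver RNA was measured on 12 Agilent 2-colour arrays, 4 groups of 3. The authors deposited each array's Feature Extraction intensities (version 10.7.3.1 for the 14-day arrays, 10.10.1.1 for the others), background-subtracted and dye-normalized, and a table of log2 ratios that equals these to within 5e-10 for spots well above background. The processed signals of both channels were used as deposited, as log2 of Cy5 over Cy3. Outlier spots were left out, and the table as an alternative gave identical values and no result of its own. Probes were named through RefSeq records, 67.9% of 39429.

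The test was limma 3.58.1 (R 4.3.3) over all 12 arrays, with 4 group means against 0 and 5 differences between groups, checked on simulated data. The arrays' number limits the precision, and the p-values describe pools of mice. Replicate numbers, from the labels, paired the MgH2 groups, since deviations of same-numbered arrays correlated at 0.37 to 0.65. Their origin is not stated. With the arrays of 14 days these correlations were lower, at 0.15 to 0.27 for 1 day, -0.041 to 0.16 for 3 days and 0.035 to 0.29 for 7 days.

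The members, the pathway list and the marker list were chosen with earlier results of these data known. Values on every array are given for the 12 called members of smallest adjusted p, the catalytic subunits and the 2 highest and 2 lowest means of each group. From the pathway list the 10 of smallest adjusted p, Nfe2l1, Psmb8 and Psme1 are named. Psmc1, Psme2, Adrm1, Usp14, Ddi2, Nfe2l2 and the second probes were named after their values were seen. Alternatives were other scalings (channel totals, array medians, normexp with offset 50 and loess), no filter, flagged spots kept, the mean of a gene's probes, own arrays alone, slide and replicate blocks, the methods' t-test and leaving out each array. The replicate block was fitted on the arrays of the groups compared alone.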

Additional observations from a re-analysis of the deposited data

Results flagged for a closer look

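These results differed between groups. By a limma test of the difference itself, Psmd9 was 0.42 higher after 7 days of MgH2 than after 1 day, Adrm1 0.24 higher and Uchl5 0.19 higher, on the log2 ratio scale. With replicate numbers as a block Psmd9 kept its call, and Adrm1 (adjusted p = 0.0657) and Uchl5 (adjusted p = 0.096) lost theirs. That fit held only the arrays of the groups compared. In H2-water at 14 days against MgH2 at 7 days, the difference was -0.22 for Nploc4 and -0.21 for Psme3, and neither was called with replicate numbers as a block (adjusted p = 0.139 and 0.128).

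For MgH2 at 3 days and H2-water at 14 days no difference was tested. The genes that follow lay on opposite sides of 0 on all 3 arrays of each group. They were picked by this rule from the members and the pathway list, and the share of all probes that meet it is not given here. The arrays of H2-water lay on a slide of their own. The difference of means, 14 days minus 3 days, was 0.12 for Psmb2, 0.20 for Psme1 and -0.23 for Usp14, a deubiquitinase of the cap. Without the third array of H2-water the value of Usp14 was -0.13.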

How the results depend on the processing

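No call of a single member reversed its direction under any alternative. The 28 called values were recomputed under alternatives 340 times, and 208 kept and 132 lost their call. The counts of called members, 8, 7, 8 and 4 in the groups of 1, 3, 7 and 14 days, became 2, 3, 3 and 1 with no filter on dim probes, 0, 0, 2 and 0 with the fit on the group's own arrays, and 0, 0, 0 and 1 by the methods' t-test after Benjamini-Hochberg adjustment. The shares of all probes with no filter, on own arrays or without an array are not given here. The adjusted t-test called few probes of any kind, 64 of 19660, 17 of 19414, 65 of 19455 and 114 of 20411. At the methods' unadjusted threshold that test gave 1 higher and 14 lower, 3 and 2, 4 and 2, and 3 and 8, beside 1463 higher and 1441 lower of 19660 probes, 2010 and 1797 of 19414, 2583 and 2362 of 19455, and 2086 and 1989 of 20411. Leaving out each array gave 2 to 3, 2 to 4, 3 to 4 and 1 to 1. For 7 days minus 1 day the count of 1 became 2 with channel totals, 2 with normexp and loess, 2 with the mean of a gene's probes and 5 with the slide as a random block. It became 0 with no filter, 0 on own arrays, 0 with the slide as a fixed block, an alternative chosen after seeing the data, and 0 to 1 when leaving out arrays, the 0 without the third array of 7 days. For 14 days minus 7 days the count of 0 became 1 with the mean of a gene's probes and 1 with the slide as a random block.

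The replicate number as a block gave 0, 1, 0, 0 and 0 members in the 5 differences and changed no call of a member's brighter probe. The second probe of Psmd9 lost its calls between groups there, as did Uchl5, Adrm1, Nploc4 and Psme3. That fit held only the arrays of the groups compared. These calls were also lost on those arrays without the block, so the part of the block in the losses was not tested. In 14 days minus 7 days it left 1 probe higher and 1 lower, against 645 and 589. With channel totals the core median became -0.057, -0.048 and -0.022 after 1, 3 and 7 days and the cap median -0.046 after 3 days, where the mean of a gene's probes gave -0.032. Over all probes, channel totals turned 1013 higher and 833 lower after 1 day into 717 and 1580, 2388 and 2149 after 3 days into 1759 and 2821, 2973 and 2775 after 7 days into 2382 and 3351, and 1005 and 799 after 14 days into 790 and 1175, where Psmd5 lost its call and 5 members were lower. Normexp and loess gave 1704 and 893 after 14 days. The causes were not tested. With 3 arrays a group and an SE near 0.036, differences of a few hundredths in a log2 ratio could not be resolved.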
